A study of Mus musculus with 12 samples.

Results

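Imprinted genes are transcribed from only the maternal or only the paternal chromosome, and many of them set how much a fetus, an organ or a stem cell pool grows. The 10 members described here, H19, Dlk1, Meg3, Peg3, Cdkn1c, Plagl1, Mest, Grb10, Rian and Nnat, were taken by symbol from a list of imprinted growth-control genes, out of 27588 genes that the annotations of all libraries share. All 10 passed the filter on low counts, which 13945 genes passed. Expression was measured by bulk RNA sequencing in 12 libraries labelled as monocytes, the blood-borne precursors of macrophages, from the meninges, the membranes around the brain. The mice were male and of the strain C57BL/6J, with no other allele named.

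Each of the 4 groups had 3 libraries. Psilocybin mice, MDMA mice and vehicle mice all went through chronic restraint stress for 18 days, were then given psilocybin (the precursor of a serotonin receptor agonist), MDMA (an amphetamine that releases serotonin) or vehicle, and were sampled 24 hours later. Unstressed control mice are called so in the sample titles, and no injection is named for them. Doses, ages and the number of animals behind a library are not stated in the labels, so p-values measure only the spread between these libraries. The question for the members was whether they differed between the groups and whether they moved together.

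In mice, expression of most of these genes is strong in the embryo, declines after birth and persists in particular cells of adult tissue, such as stromal, endocrine and neural cells. Imprinted genes often lie in clusters under shared control regions: on chromosome 12 the paternal copy makes Dlk1 while the maternal copy makes the long noncoding RNAs Meg3 and Rian. The maternal copy also makes H19 and Cdkn1c, both on chromosome 7. Plagl1 encodes a zinc finger transcription factor which in mice regulates other imprinted genes, H19, Cdkn1c and Dlk1 among them.

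Dlk1, Meg3 and Rian lie within 208.9 kb of each other on chromosome 12 of GRCm38 (the assembly also called mm10), all on the plus strand. Dlk1 spans positions 109452823 to 109463336, Meg3 109541001 to 109571726 and Rian 109603940 to 109661716. Their promoter windows, 250 bases before to 50 after the start in RefSeq for GRCm38.p6, are shown because these neighbours hold the closest pairs of members, Dlk1 with Rian and Meg3 with Rian, beside those of Plagl1 and Nnat, the pair with the strongest negative correlation. Capitals mark TGCCGC or its reverse complement GCGGCA, the hexamer bound in mice by ZFP57, a protein that maintains imprints. Both strands were searched, and no other motif was.
Dlk1, chr12:109452573-109452872, plus strand: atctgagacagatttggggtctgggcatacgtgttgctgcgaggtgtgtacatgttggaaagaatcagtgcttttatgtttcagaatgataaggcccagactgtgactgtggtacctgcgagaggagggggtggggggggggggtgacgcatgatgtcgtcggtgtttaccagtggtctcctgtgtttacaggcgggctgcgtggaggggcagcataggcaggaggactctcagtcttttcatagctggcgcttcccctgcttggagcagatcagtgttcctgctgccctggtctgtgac
Meg3, chr12:109540746-109541045, plus strand: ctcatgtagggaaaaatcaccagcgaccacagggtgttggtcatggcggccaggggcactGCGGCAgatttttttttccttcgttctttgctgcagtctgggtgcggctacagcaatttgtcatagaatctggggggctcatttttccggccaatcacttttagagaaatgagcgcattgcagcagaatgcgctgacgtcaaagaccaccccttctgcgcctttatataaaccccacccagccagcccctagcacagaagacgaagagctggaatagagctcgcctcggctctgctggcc
Rian, chr12:109603695-109603994, plus strand: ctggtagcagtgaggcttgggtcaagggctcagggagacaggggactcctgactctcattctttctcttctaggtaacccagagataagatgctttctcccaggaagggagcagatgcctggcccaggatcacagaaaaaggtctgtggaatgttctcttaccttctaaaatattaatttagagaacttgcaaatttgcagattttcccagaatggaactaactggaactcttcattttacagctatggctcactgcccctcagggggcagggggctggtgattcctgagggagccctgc
Plagl1, chr10:13090582-13090881, plus strand: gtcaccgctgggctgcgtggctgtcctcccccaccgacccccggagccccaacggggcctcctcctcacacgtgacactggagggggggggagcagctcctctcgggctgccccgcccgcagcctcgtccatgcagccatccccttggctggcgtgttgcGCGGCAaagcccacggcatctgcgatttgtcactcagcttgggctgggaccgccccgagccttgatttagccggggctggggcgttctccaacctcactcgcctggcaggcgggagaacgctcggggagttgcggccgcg
Nnat, chr2:157559828-157560127, plus strand: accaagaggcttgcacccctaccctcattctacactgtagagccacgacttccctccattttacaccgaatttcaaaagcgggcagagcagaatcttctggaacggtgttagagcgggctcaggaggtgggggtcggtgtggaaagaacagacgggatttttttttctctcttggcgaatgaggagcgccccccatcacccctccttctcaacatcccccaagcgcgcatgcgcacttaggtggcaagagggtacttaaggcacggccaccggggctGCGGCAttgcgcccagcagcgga
The hexamer occurred once in the windows of Meg3, Plagl1 and Nnat, and these letters were not found in those of Dlk1 and Rian. The RefSeq table held 12 promoter windows for 8 members. With overlapping windows of a gene counted once, which joins 2 windows of Mest, 5 of 11 had the hexamer, against 11.7% of all 30762 windows. CpG dinucleotides numbered 26 in the Plagl1 window, 17 in that of Nnat, 13 in that of Meg3, 9 in that of Dlk1 and 0 in that of Rian, with a median of 7 over all windows. These are descriptions of sequence, and no methylation or binding was measured.

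The libraries differed in ways that bear on every result. Totals ran from 2601848 to 4079069 counts in psilocybin libraries, 2859534 to 5136953 in MDMA libraries, 807725 to 3623830 in vehicle libraries and 2949163 to 4504400 in unstressed libraries. Vehicle replicates 1 and 3 had counts for 10345 and 9522 genes, against 13464 in vehicle replicate 2 and 14321 to 17926 in the libraries of the other groups. Unstressed libraries were counted with another annotation than the stressed ones, and only H19 had nearly the same exons in both. For the other members, annotation and the lack of stress cannot be told apart. For H19 too, stress cannot be told apart from injection or from the way of counting. No injection is named for unstressed mice, and the counting command of the stressed libraries is not given. The length not shared with other genes was in RefSeq 0.204 times that in GENCODE for Rian and 1.75 times for Nnat, the extremes. The label was weakly borne out: the 8 classical monocyte markers summed to 106 to 460 CPM (counts scaled to a common library total, over all gene counts of a library) in psilocybin libraries, 331 to 1170 in MDMA libraries, 51.9 to 243 in vehicle libraries and 184 to 345 in unstressed libraries, whereas 9 choroid plexus markers summed to between 12500 and 126000 CPM. In such bulk libraries, fewer cells of a type and less RNA per cell cannot be told apart.

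No member passed the test in any comparison. Adjusted over all genes by Benjamini and Hochberg's method at 0.05, the quasi-likelihood test of edgeR called 0 of 10 members for psilocybin against vehicle, where it called 0.0143% of all genes, and 0 of 10 for MDMA against vehicle, where it called 0.674%. It called 0 of 10 for psilocybin against MDMA, with 0.0% of all genes, and 0 of 10 for vehicle against unstressed, with 3.43%. A test of any difference among the 4 groups called 0 of 10, against 0.581% of all genes. At an unadjusted p under 0.05 there were 2 members for psilocybin against vehicle (Dlk1 and Plagl1), 1 for MDMA against vehicle (Plagl1), 1 for any difference (Plagl1) and 0 for the other comparisons. Over all genes these shares were 15.9% for psilocybin against vehicle, 16.7% for MDMA against vehicle, 14.3% for any difference, 0.581% for psilocybin against MDMA and 18.5% for vehicle against unstressed, so the members were near or below them. DESeq2 called 1 member for psilocybin against vehicle, with 7.61% of all genes. Limma voom called 1 for psilocybin against vehicle, with 3.13% of all genes, and 1 for MDMA against vehicle, with 6.36%. Without vehicle replicate 2, edgeR called 3 members (Dlk1, Plagl1 and Rian) in each comparison with vehicle and in the test of any difference. That fit called 24.5% of all genes for psilocybin against vehicle, 25.0% for MDMA against vehicle, 25.4% for vehicle against unstressed and 17.1% for any difference, so 3 of 10 was near the background.

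In the main edgeR fit the members' fold changes were spread around 0 on the log2 scale rather than to one side. For psilocybin against vehicle 5 members were positive and 5 negative with a median of -0.08, beside a median of 0.31 over all genes tested. For MDMA against vehicle 4 were positive and 6 negative with a median of -0.12, beside 0.24. For vehicle against unstressed the split was 6 to 4 with a median of 0.2, beside -0.18, and 8 members were positive with DESeq2's size factors, under which Peg3 and Grb10 changed sign. For psilocybin against MDMA the split was 4 to 6 with a median of -0.22, beside 0.02. The comparisons with vehicle share the vehicle libraries. With DESeq2's size factors the median over all genes moved to 0.12 for psilocybin against vehicle, 0.10 for MDMA against vehicle and 0.0015 for vehicle against unstressed. The split against vehicle depended on the method. Limma voom had 7 members positive for psilocybin and 7 for MDMA (medians 0.95 and 1.03, beside 1.45 and 1.29 over all genes). These numbers were 6 and 7 with the replicate block, 5 and 4 with DESeq2, and 9 and 7 without vehicle replicates 1 and 3.

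**Figure D1:**
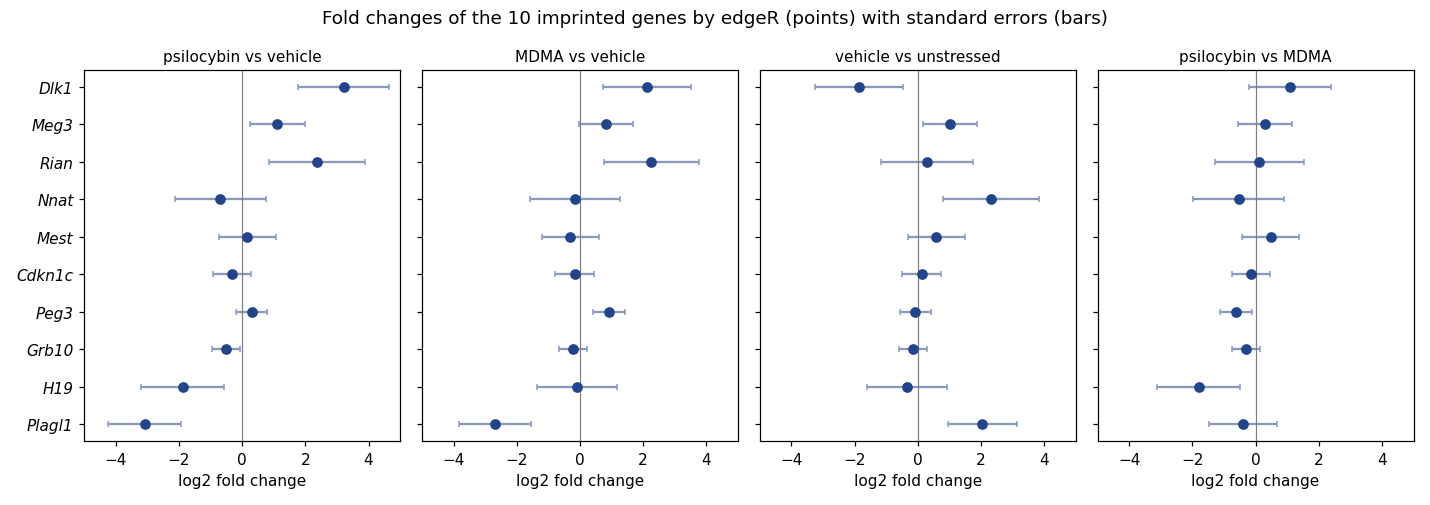
Log2 fold change of each of the 10 imprinted genes (points) with its standard error (bars) from edgeR, in 4 panels, one for each comparison of 2 groups with 3 libraries each. The widest departures from 0, Dlk1 at 3.21 and Plagl1 at -3.09 for psilocybin against vehicle, did not pass the adjusted threshold.

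Levels can be set beside each other per length within the 9 stressed libraries, which share 1 annotation. As median CPM per kb of exon not shared with other genes, the order was Cdkn1c at 124, H19 at 45.3, Meg3 at 40.7, Mest at 27.1, Grb10 at 25.9, Peg3 at 12.8, Nnat at 12.4, Plagl1 at 6.2, Dlk1 at 4.2 and Rian at 3.13. Each neighbour in that order overlapped the next in its range over the 9 libraries. Grb10 varied least for its level, between 18.6 and 39.0 CPM per kb, and H19 ranged from 0.123 to 277.

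**Figure D2:**
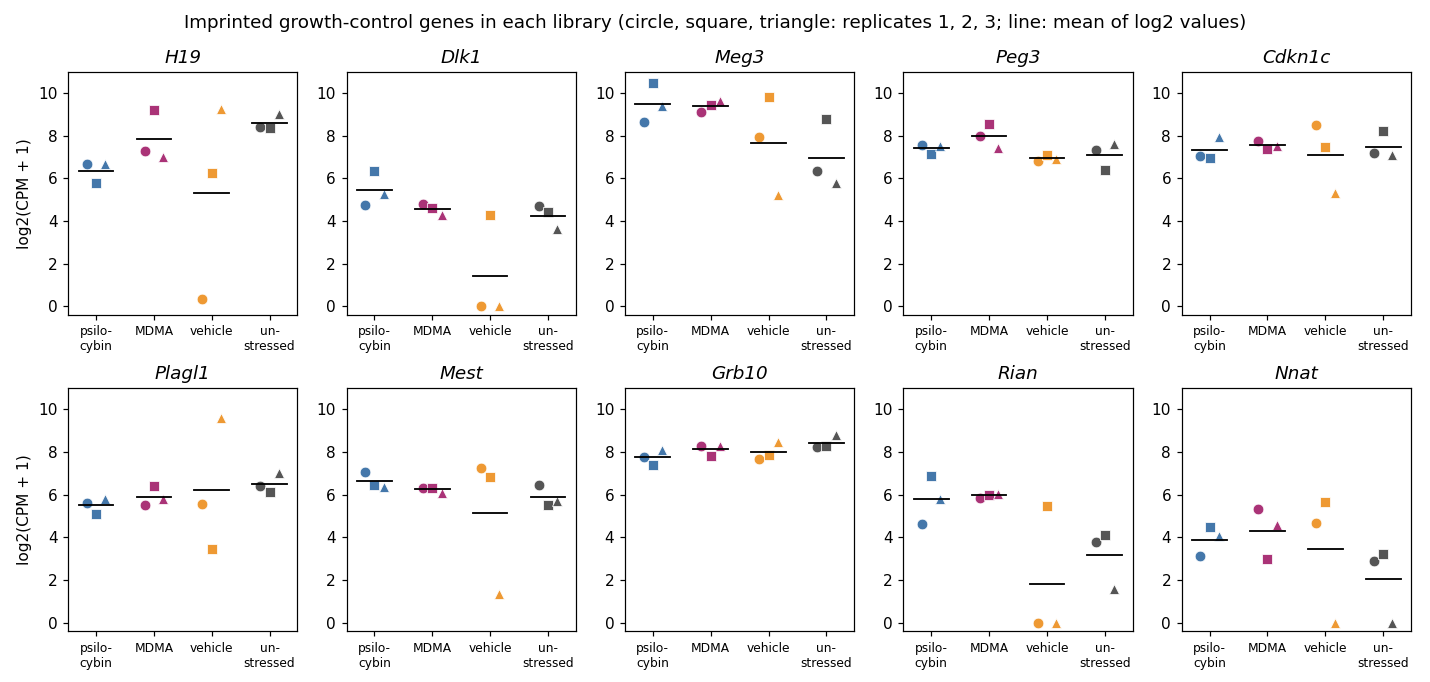
Level of each of the 10 imprinted genes as log2(CPM + 1) in the 12 libraries, by group, with replicates 1, 2 and 3 as circle, square and triangle and a line at the mean of the log2 values. Vehicle libraries spread widely for H19, Dlk1, Meg3, Plagl1, Mest, Rian and Nnat, with Dlk1 and Rian at 0 in vehicle replicates 1 and 3, while Grb10 and Peg3 stay close together in all groups.

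Of the chromosome 12 cluster, Dlk1 and Rian were lowest in vehicle replicates 1 and 3, and Meg3 was lowest in vehicle replicate 3. Dlk1, a membrane protein related to Notch ligands that holds back differentiation, had 26.0, 81.5 and 37.5 CPM in psilocybin libraries, 26.9, 23.8 and 18.7 in MDMA libraries, 0, 18.6 and 0 in vehicle libraries and 25.1, 20.5 and 11.3 in unstressed libraries. All psilocybin and all MDMA libraries lay above all vehicle libraries, as did 20.8% and 16.8% of all genes tested, and the lowest MDMA library was level with vehicle replicate 2. Vehicle and unstressed libraries overlapped. The 18.6 CPM in vehicle replicate 2 rest on 15 counts, and a count of 0 allows up to 0.828 CPM in vehicle replicate 1 and 1.54 in vehicle replicate 3, by counting error alone (3 counts of the total). The log2 fold change of Dlk1 was 3.21 ± 1.44 (SE) for psilocybin against vehicle, with an unadjusted p of 0.0423 and an adjusted p of 0.294 by edgeR. Over alternatives that adjusted p ran from 0.00269 without vehicle replicate 2 to 1 with only those 2 groups in the fit, and limma voom gave 0.0368.

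Rian, a noncoding RNA that hosts small nucleolar RNAs, had 24.0, 118 and 55.2 CPM in psilocybin libraries, 56.6, 63.3 and 64.4 in MDMA libraries, 0, 43.3 and 0 in vehicle libraries and 12.9, 16.5 and 2.0 in unstressed libraries. MDMA libraries lay above all vehicle libraries, and psilocybin replicate 1 lay below vehicle replicate 2. The log2 fold change of Rian was 2.25 ± 1.51 for MDMA against vehicle and 2.37 ± 1.51 for psilocybin against vehicle, with adjusted p-values of 0.508 and 0.498 by edgeR. For MDMA against vehicle limma voom gave an adjusted p of 0.0364. Without vehicle replicate 2 the vehicle group held 0 counts of both Dlk1 and Rian, and both genes passed the threshold in the 3 comparisons with that group.

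Zeros in those libraries were common. Of 8475 genes that passed the filter and averaged 10 to 100 CPM over the other 10 libraries, 22.9% were listed at 0 in vehicle replicate 1, 27.8% in vehicle replicate 3 and 9.65% in both. Dlk1 and Rian averaged 29.0 and 45.6 CPM over those 10 libraries. Mirg, a microRNA host transcript of the same cluster looked up after its values were seen, had 2.96, 6.53 and 4.9 CPM in psilocybin libraries, 1.96, 4.2 and 1.95 in MDMA libraries, 0, 7.43 and 0 in vehicle libraries and 0.339, 0.998 and 0.888 in unstressed libraries. It was thus also at 0 in vehicle replicates 1 and 3, and highest in vehicle replicate 2, where it had 6 counts. Mirg averaged 2.68 CPM over the 12 libraries, below the 10 to 100 CPM of the genes above. Its zeros were not set against genes of a like level.

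Meg3, a noncoding RNA that restrains proliferation in cultured cells, had the highest CPM of the members on average. It had 394, 1410 and 675 CPM in psilocybin libraries, 559, 701 and 791 in MDMA libraries, 244, 905 and 36.3 in vehicle libraries and 81.0, 442 and 53.7 in unstressed libraries. Psilocybin replicate 2 was highest and vehicle replicate 3 lowest, and the vehicle group overlapped each of the other groups. Meg3 averaged 828 ± 527 CPM in psilocybin libraries and 684 ± 117 in MDMA libraries, against 395 ± 454 in vehicle libraries (SD, n = 3 each), with adjusted p-values of 0.597 and 0.708 by edgeR.

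H19, a noncoding RNA that carries the microRNA miR-675 and limits fetal growth in mice, lies on chromosome 7 from 142575529 to 142578143 on the minus strand. It had 101, 53.4 and 101 CPM in psilocybin libraries, 157, 583 and 127 in MDMA libraries, 0.276, 75.5 and 620 in vehicle libraries and 345, 329 and 527 in unstressed libraries. Vehicle libraries spanned 1 count in replicate 1 to the highest level of all 12 libraries in replicate 3. All psilocybin libraries lay below all MDMA libraries, as did 8.33% of all genes tested. The log2 fold change was -1.79 ± 1.31 for psilocybin against MDMA, with an adjusted p of 1 by edgeR. H19 averaged 232 ± 338 CPM in vehicle libraries, against 400 ± 110 in unstressed libraries (SD, n = 3 each), and the log2 fold change of -0.34 ± 1.28 had an adjusted p of 0.922.

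Cdkn1c, an inhibitor of cyclin-dependent kinases that stops the cell cycle, lies 880.2 kb from H19. It had 133, 123 and 243 CPM in psilocybin libraries, 218, 167 and 184 in MDMA libraries, 366, 176 and 38.4 in vehicle libraries and 146, 296 and 134 in unstressed libraries. The group means lay between 166 and 193 CPM, and all groups overlapped. Across the libraries H19 and Cdkn1c had an r of -0.53 (adjusted p = 0.19, permutation test, rho = -0.32) and of 0.096 without vehicle replicates 1 and 3.

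Plagl1 stood apart in 1 library. It had 48.3, 32.7 and 54.9 CPM in psilocybin libraries, 44.3, 82.5 and 54.7 in MDMA libraries, 46.9, 9.9 and 773 in vehicle libraries and 83.1, 68.6 and 128 in unstressed libraries. Vehicle replicate 3 was far above every other library, the next of which had 128 CPM, and vehicle replicate 2 was the lowest. The log2 fold change was -3.09 ± 1.15 for psilocybin against vehicle (adjusted p = 0.198) and -2.69 ± 1.13 for MDMA against vehicle (adjusted p = 0.236) by edgeR. Without vehicle replicate 3 these became 0.55 and 0.94, with adjusted p-values of 0.731 and 0.447, and DESeq2 with all libraries gave -3.41 with an adjusted p of 0.0372 for psilocybin against vehicle. The sign of the Plagl1 difference from vehicle thus depended on vehicle replicate 3.

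Nnat, a small membrane proteolipid of neural and endocrine cells, had 7.7, 21.5 and 15.7 CPM in psilocybin libraries, 39.2, 6.99 and 23.0 in MDMA libraries, 24.8, 49.5 and 0 in vehicle libraries and 6.44, 8.23 and 0 in unstressed libraries. Vehicle replicate 3 and unstressed replicate 3 were at 0, vehicle replicate 2 was highest, and all groups overlapped. The log2 fold change of vehicle against unstressed was 2.32 ± 1.51, with an adjusted p of 0.456 by edgeR and with the annotation difference named above.

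Mest, a paternally expressed protein of the hydrolase family that promotes fetal growth in mice, had 131, 87.2 and 82.1 CPM in psilocybin libraries, 79.1, 78.7 and 67.5 in MDMA libraries, 151, 113 and 1.54 in vehicle libraries and 86.5, 44.4 and 51.1 in unstressed libraries. Psilocybin libraries all lay above the MDMA libraries, as did 7.76% of all genes tested, while the vehicle group held both the highest and the lowest library. With TMM scaling the psilocybin and MDMA groups overlapped, with 79.4 CPM in psilocybin replicate 3 and 86.2 in MDMA replicate 2. The log2 fold change was 0.47 ± 0.90 for psilocybin against MDMA, with an adjusted p of 1 by edgeR. Mest shares exon sequence with Copg2. No strand option was set in counting the unstressed libraries, and the counting command of the stressed ones is not given. How reads of the shared part were counted is thus uncertain.

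Peg3 and Grb10 varied least. Peg3, a paternally expressed zinc finger protein, had 188, 142 and 180 CPM in psilocybin libraries, 250, 374 and 170 in MDMA libraries, 113, 137 and 119 in vehicle libraries and 158, 82.3 and 198 in unstressed libraries. Both drug groups lay wholly above the vehicle group, which adds Peg3 to Dlk1 among members in that position for psilocybin (2 of 10) and to Dlk1 and Rian for MDMA (3 of 10), near the 20.8% and 16.8% of all genes. In the other direction 0 of 10 members had all psilocybin libraries below all vehicle libraries, against 2.62% of all genes, and 0 of 10 had all MDMA libraries there, against 1.87%. Vehicle libraries lay wholly above the unstressed ones for 0 of 10 members and wholly below for 0 of 10, against 2.77% and 17.8% of all genes. These positions are in CPM by library totals. With TMM scaling Peg3 had 171 CPM in vehicle replicate 3, above psilocybin replicate 2 (141) and MDMA replicate 3 (155). Both drug groups then overlapped the vehicle group for Peg3. Peg3 averaged 265 ± 103 CPM in MDMA libraries, against 123 ± 12.8 in vehicle libraries (SD, n = 3 each), a log2 fold change of 0.92 ± 0.50 with an unadjusted p of 0.0858 and an adjusted p of 0.387 by edgeR.

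Grb10, an adaptor that inhibits signalling by the insulin and IGF1 receptors, had 215, 169 and 269 CPM in psilocybin libraries, 309, 226 and 308 in MDMA libraries, 201, 235 and 354 in vehicle libraries and 298, 306 and 441 in unstressed libraries. The groups overlapped in each of the 4 comparisons. Grb10 ranged from 169 to 441 CPM over the 12 libraries, and its log2 fold change farthest from 0 in the 4 comparisons was -0.52 ± 0.44 for psilocybin against vehicle (adjusted p = 0.634, edgeR).

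Whether the members moved together was asked with 45 correlations of log2(CPM + 1) between pairs of members over the 12 libraries, tested by permutation and adjusted over the 45. In all 26 were positive and 18 negative, with a median r of 0.23, and 6 passed an adjusted p of 0.05. The positive ones were Dlk1 with Rian (r = 0.90, adjusted p = 0.0025), Meg3 with Rian (r = 0.83, adjusted p = 0.027) and Meg3 with Nnat (r = 0.83, adjusted p = 0.016). Plagl1 was in all 3 negative ones, with Nnat (r = -0.85, adjusted p = 0.0009), Mest (r = -0.85, adjusted p = 0.029) and Meg3 (r = -0.77, adjusted p = 0.011). The members thus formed no single block. Over the 12 libraries Dlk1, Meg3, Rian, Nnat, Mest and Cdkn1c, grouped after their values were seen, had a positive r in all 15 of their pairs. By rho 13 of the 15 were positive, with Dlk1 and Cdkn1c at -0.06, and without the 2 libraries farthest from the median of the first gene 11 were, with Cdkn1c and Mest at -0.44 in place of 0.77. Dlk1 with Meg3, neighbours on chromosome 12, had an r of 0.62 (adjusted p = 0.10) and a rho of 0.49 (adjusted p = 0.29). In the 9 stressed libraries this pair had an r of 0.85 (adjusted p = 0.04, exact permutation test) and a rho of 0.48 (adjusted p = 0.63). Without vehicle replicates 1 and 3 that r was 0.52. Plagl1 had a negative r with each of these 6, which was -0.02 for Cdkn1c without vehicle replicates 1 and 3, and Peg3 had no r beyond 0.42 with any member.

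By rank, 5 of the 45 pairs passed. These were Meg3 with Rian (Spearman's rho = 0.89, adjusted p = 0.0083), Plagl1 with Nnat (rho = -0.91, adjusted p = 0.0067), H19 with Plagl1 (rho = 0.86), H19 with Mest (rho = -0.82) and Mest with Grb10 (rho = -0.80), the last 3 with adjusted p-values of 0.01, 0.021 and 0.026. The other pairs called by r had a rho of 0.68 (Dlk1 with Rian, adjusted p = 0.077), 0.66 (Meg3 with Nnat, 0.088), -0.69 (Plagl1 with Mest, 0.077) and -0.71 (Meg3 with Plagl1, 0.071). Over the 12 libraries, Meg3 with Rian and Plagl1 with Nnat were thus the pairs called by both measures. In the 9 stressed libraries, which share 1 annotation, both passed by r (adjusted p = 0.023 and 0.031, exact permutation test). By rank neither passed there (rho = 0.81 and -0.83, adjusted p = 0.17 each, exact permutation test).

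Several of these values rested on few libraries. Dlk1 with Rian had an r of 0.69 without vehicle replicates 1 and 3 (adjusted p = 0.15), where both genes were at 0. Meg3 with Rian had an r of 0.92 without those libraries (adjusted p = 0.0031), 0.88 in the 9 stressed libraries (adjusted p = 0.023, exact permutation test) and 0.67 without the 2 libraries farthest from the median of Meg3, vehicle replicate 3 and unstressed replicate 3. Without the 2 libraries farthest from the median of the first gene named, the r was -0.86 for Plagl1 with Nnat, -0.53 for Plagl1 with Mest, 0.47 for Meg3 with Nnat and -0.48 for Meg3 with Plagl1. Deviations from the group means gave 0 pairs past the threshold, with 4 at an unadjusted p under 0.05, and an r of 0.80 for Meg3 with Rian and of -0.89 for Plagl1 with Nnat. The number of pairs past the threshold was 23 without vehicle replicate 1, 1 without vehicle replicate 3 and 2 without unstressed replicate 3.

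**Figure D3:**
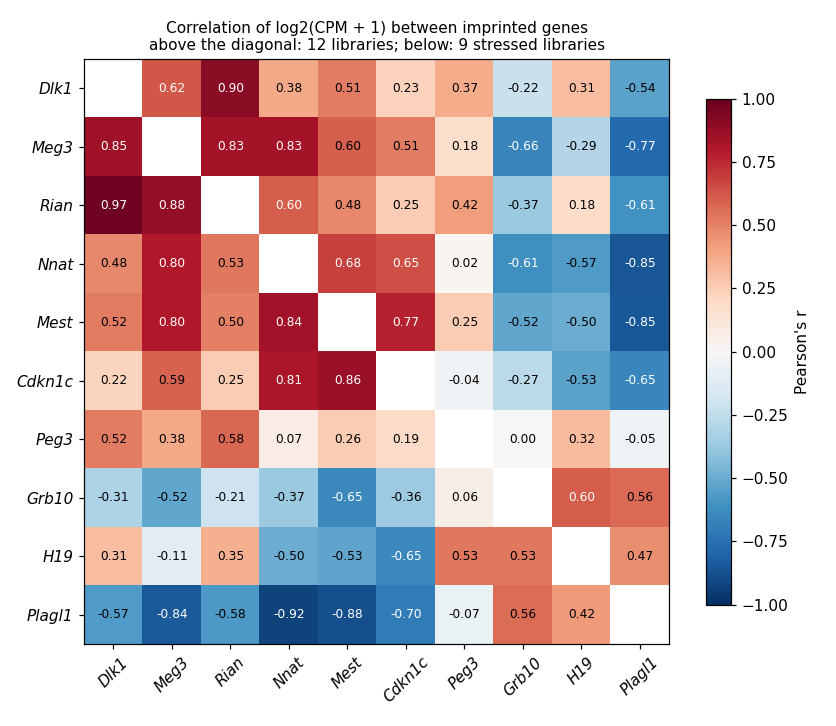
Pearson's r of log2(CPM + 1) for each pair of the 10 imprinted genes, over 12 libraries above the diagonal and over the 9 stressed libraries below it, from blue (negative) to red (positive). Plagl1 is negative with Dlk1, Meg3, Rian, Nnat, Mest and Cdkn1c above and below the diagonal, and Dlk1, Meg3 and Rian are positive with each other.

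How common such correlations were among all genes differed from pair to pair. In the 9 stressed libraries, the median r with 12048 genes was 0.50 for Dlk1, 0.57 for Meg3, 0.50 for Rian and -0.46 for Plagl1. Ranked by r with Dlk1, Rian was gene 30 of 12048, and ranked by r with Meg3, Rian was gene 1160 and Dlk1 gene 1670. From the highest r with Nnat downwards, Plagl1 was gene 12045, and from the highest r with Plagl1, Nnat was gene 11840. The genes most like Meg3 were Pde6g (r = 0.996), the inhibitory subunit of the photoreceptor phosphodiesterase, Slc17a6, a vesicular glutamate transporter, and Neurod4, a transcription factor of neural precursors. The 3 genes nearest to Dlk1 were Znhit2, Pacsin1 and Map7d2, those nearest to Rian were Eno3, Tal2 and Ppm1l, and those nearest to Nnat were Susd6, Aldoc and Bap1. H19 was nearest to Nid1, a basement membrane protein, Eif4a3 and Slc4a10, and Plagl1 to Cntln, Lamb1 and Plekhg1. Mest was nearest to Tmem67, Dpp7 and Arl6, Cdkn1c to Acer3, Tspan13 and Bmp5, Peg3 to Ptpre, Baz1b and Nlgn1, and Grb10 to Serping1, Cpxm2 and Igtp. All of these had an r of at least 0.938 over 9 libraries.

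Several members followed the markers of a particular tissue. Of 130 correlations between a member and the summed CPM of 1 of 13 marker lists, 7 passed an adjusted p of 0.05. Meg3 followed the 6 pineal markers (Tph1, Aanat, Asmt, Crx, Sag and Gngt1) most closely, with an r of 0.97 and a rho of 0.94 (p = 1e-05, the smallest the permutations can give, adjusted p = 0.0013). The pineal sum was 795, 5920 and 2140 CPM in psilocybin libraries, 1380, 1630 and 2740 in MDMA libraries, 1420, 3470 and 8.19 in vehicle libraries and 116, 1690 and 15.3 in unstressed libraries. The 3 libraries lowest in the pineal sum, vehicle replicate 3 and unstressed replicates 1 and 3, were also the 3 lowest in Meg3. Within the other 9 libraries, each over 200 CPM, the r was 0.83 (exact permutation p = 0.0069, adjusted over 4 members 0.028). That split and its 4 members were chosen after the values were seen, so its p-value is no independent support. For Meg3 the r was 0.96 in the 9 stressed libraries and 0.94 without the 2 libraries farthest from the median of the sum. Rian, from the same cluster as Meg3, had an r of 0.73 and a rho of 0.72 with the pineal sum (adjusted p = 0.078 and 0.13) and an r of 0.46 within those 9 libraries.

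Mest followed the choroid plexus sum, with an r of 0.74 and a rho of 0.92 (adjusted p = 0.0026), and 0.84 without the 2 libraries farthest from the median of that sum. The choroid plexus sum was 117000, 64000 and 66900 CPM in psilocybin libraries, 44100, 29800 and 22600 in MDMA libraries, 126000, 64000 and 12500 in vehicle libraries and 40000, 15300 and 38100 in unstressed libraries. As with Mest before TMM scaling, all psilocybin libraries lay above all MDMA libraries (exact permutation p = 0.1, the smallest that 3 against 3 can give). Again vehicle replicates 1 and 3 were the highest and the lowest. Nnat followed the neural and glial sum (r = 0.82, adjusted p = 0.012, rho = 0.84, adjusted p = 0.056), with 0.81 without the 2 libraries farthest from the median of the sum. With the pineal sum Nnat had an r of 0.90 (adjusted p = 0.012) and a rho of 0.69 (adjusted p = 0.15), and Plagl1 had an r of -0.82 (adjusted p = 0.0082) and a rho of -0.69 (adjusted p = 0.15). Within the 9 libraries over 200 CPM these were an r of 0.45 for Nnat and of -0.48 for Plagl1, neither past the threshold. The neural and glial sum ran from 916 to 1770 CPM in psilocybin libraries, 869 to 4270 in MDMA libraries, 666 to 1570 in vehicle libraries and 381 to 1230 in unstressed libraries.

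H19 had an r of 0.82 with the 11 fibroblast markers, just outside the threshold (adjusted p = 0.052, rho = 0.73, adjusted p = 0.13), and 0.54 without vehicle replicate 1. The fibroblast sum was 2610, 1450 and 2840 CPM in psilocybin libraries, 5100, 7240 and 11800 in MDMA libraries, 437, 2000 and 4980 in vehicle libraries and 3110, 5480 and 3930 in unstressed libraries, so psilocybin libraries lay below MDMA libraries as they did for H19. By r but not by rank, Meg3 with the adipocyte sum (r = 0.87, adjusted p = 0.012, rho = 0.56) and Dlk1 with the pituitary sum (r = 0.85, adjusted p = 0.043, rho = 0.54) also passed. The adipocyte sum was at most 60.1 CPM, and without vehicle replicate 3 and unstressed replicate 3 its r with Meg3 was 0.67. The pituitary sum was at most 10.4 CPM in any library, with Fshb at 0 in all, and the r with Dlk1 was 0.35 without vehicle replicates 1 and 3. The part of these cell types in the members' differences between groups was not tested.

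**Figure D4:**
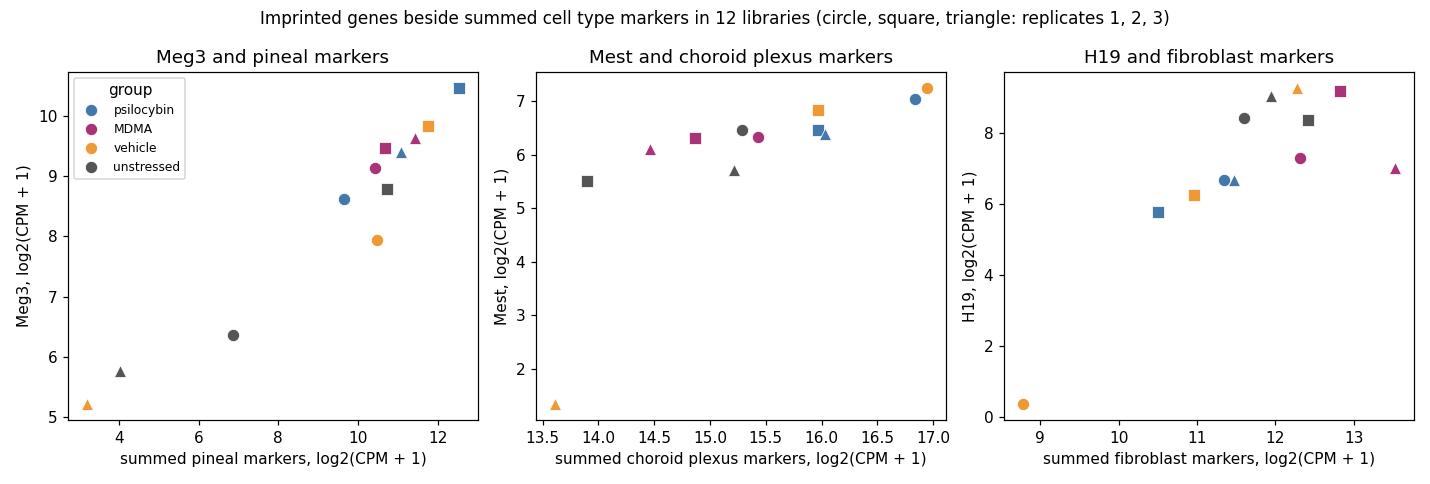
Level of Meg3, Mest and H19 as log2(CPM + 1) on the vertical axes against the summed CPM of pineal, choroid plexus and fibroblast markers as log2(CPM + 1) on the horizontal axes, 1 point for each of the 12 libraries, coloured by group. Meg3 is higher where the pineal sum is higher (r = 0.97), as is Mest with the choroid plexus sum (r = 0.74), with vehicle replicate 3 lowest on both axes. In the third panel (r = 0.82, not past the threshold) vehicle replicate 1 lies far from the rest.

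Among 45 other imprinted genes, 36 were tested, and vehicle against unstressed was the comparison of 2 groups with calls, where 1 was higher and 2 were lower. Those 3 of 36 stand beside 3.43% of all genes. At an unadjusted p under 0.05 there were 9 of 36 in that comparison, beside 18.5% of all genes. The test of any difference called 2 of 36, Gnas and Igf2, beside 0.581% of all genes. Gnas, the stimulatory G protein subunit, had 67.9, 73.0 and 4.09 CPM in vehicle libraries, against 1290, 1490 and 1520 in unstressed libraries (log2 fold change -4.87 ± 0.77, adjusted p = 0.015, edgeR). Igf2, the fetal growth factor next to H19, had 16.8, 9.9 and 1.02 CPM in vehicle libraries, against 224, 279 and 238 in unstressed libraries (-4.63 ± 0.79, adjusted p = 0.0199). Snrpn, a splicing protein, had 322, 206 and 26.1 CPM in vehicle libraries, against 0, 4.74 and 0 in unstressed libraries (6.92 ± 1.32, adjusted p = 0.0287). In the psilocybin and MDMA libraries, Gnas was at most 43.6 CPM and Igf2 at most 24.5, and Snrpn was at least 78.3. The exon length not shared with other genes was 8729 bases in GENCODE and 10722 in RefSeq for Gnas, 2029 and 4890 for Igf2 and 1422 and 410 for Snrpn. Per kb of that length, vehicle and unstressed libraries averaged 5.54 and 134 CPM for Gnas, 4.56 and 50.5 for Igf2 and 130 and 3.85 for Snrpn. Annotation and stress changed together between these groups, so they cannot be told apart. Leaving out unstressed replicate 1, 2 or 3 ended the calls of Gnas and Igf2, and leaving out replicate 1 or 3 that of Snrpn, with adjusted p-values of 0.0585 to 0.0888.

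For the drugs, none of the 36 passed by edgeR in a comparison with vehicle or with each other, with 6 at an unadjusted p under 0.05 for psilocybin against vehicle, 9 for MDMA against vehicle and 0 for psilocybin against MDMA. These are to be read against 15.9%, 16.7% and 0.581% of all genes. The smallest p-values against vehicle belonged to Usp29, Ndn, Rasgrf1 and Airn for psilocybin and to Zdbf2, Rasgrf1, Ndn and Usp29 for MDMA. Ndn, a growth suppressor of neurons, had 43.5, 70.7 and 55.4 CPM in psilocybin libraries and 57.5, 22.0 and 64.0 in MDMA libraries, against 0, 12.4 and 1.02 in vehicle libraries (adjusted p = 0.133 and 0.134). Usp29 and Rasgrf1 had log2 fold changes of 4.30 ± 1.27 and 3.62 ± 1.47 for psilocybin against vehicle and 3.41 ± 1.27 and 5.02 ± 1.48 for MDMA against vehicle, with adjusted p-values between 0.0998 and 0.243. Airn followed for psilocybin (3.30 ± 1.42, adjusted p = 0.272) and Zdbf2 for MDMA (6.25 ± 1.72, adjusted p = 0.0858). For psilocybin against MDMA the smallest p-values were those of Zdbf2, Dcn, Sfmbt2 and Rasgrf1, all with an adjusted p of 1.

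A list of growth-control partners, with receptors, ligands, cell cycle genes and others, did not pass either: 0 of 13 tested genes did in any comparison. At an unadjusted p under 0.05 there were 2 for psilocybin against vehicle, 1 for MDMA against vehicle, 0 for psilocybin against MDMA and 2 for vehicle against unstressed, beside 15.9%, 16.7%, 0.581% and 18.5% of all genes. Ccne1, a cyclin held in check by Cdkn1c, had 2.07, 2.31 and 5.15 CPM in psilocybin libraries and 6.45, 1.05 and 10.7 in MDMA libraries, and 0 counts in all vehicle libraries (adjusted p = 0.162 and 0.102). Notch1, the receptor that Dlk1 is thought to restrain, had 11.9, 53.2 and 4.61 CPM in vehicle libraries, against 117, 117 and 170 in unstressed libraries (log2 fold change -2.60 ± 0.77, adjusted p = 0.0773). For psilocybin against vehicle the next smallest p-values were those of Cdkn1b, Igf1r and Igf1 and for MDMA against vehicle those of Cdkn1b, Notch1 and Insr, with adjusted p-values of 0.304 to 0.535.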

How the data were processed

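RNA of 12 libraries was extracted with PicoPure and 5 ng entered a NEBNext library, per the labels' protocols. The authors deposited raw whole-number counts for each gene. The submitters' processing notes name fastp 0.23.2 and STAR 2.7.5c, and also featureCounts 2.0.1, edgeR 3.42.4 and the build mm10. Counting of the unstressed libraries ran over RefSeq exons with featureCounts and no strand option, per the file headers. The stressed libraries carry Ensembl identifiers, and their counting command is not given in the sources used here. Of the columns in a series-wide table, 9 repeat the stressed libraries, and the 3 that match no sample were left out.

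Genes were joined through GENCODE vM21 (26664 by symbol and locus, 924 by position, at a Jaccard index of exons of 0.5 or more), holding 94.8% to 99.1% of counts. CPM used library totals. Fold changes come from edgeR 4.0.16 quasi-likelihood tests in R 4.3.3 with TMM scaling and filterByExpr, fitted on all 12 libraries and adjusted over all genes. Their standard errors come from the test statistic. Correlations used log2(CPM + 1) with 100000 permutations, or exact ones for 9 libraries, in Python 3.11.15, with pairs adjusted within their family (45 or 130). The test scripts were tested on simulated data.

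The members, lists and tests were chosen with earlier results of these data known. Named genes are the 10 members, genes of 2 lists past the threshold or else the up to 4 with the smallest p, and the 3 genes with the highest r to each member among those of at least 5 CPM. Psilocybin and vehicle libraries of the same number had correlated deviations from the mean of their group across genes (r = 0.112, 0.213 and 0.115), all over 0.1. Libraries of different numbers were not compared in this way, so whether the number pairs these groups was not tested. The main fits used the group alone, and a replicate block was run as an alternative. No 2 libraries were identical. Alternatives were DESeq2 1.42.0 and its size factors, limma 3.58.1 voom, no filter, a replicate block, fewer groups, genes with the same exons, and leaving out each library. Leaving out vehicle replicates 1 and 3 together, rho in the stressed libraries and the split by pineal sum were added after seeing the data.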

Additional observations from a re-analysis of the deposited data

How the results depend on the processing

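In psilocybin against MDMA 0 members were called under every alternative run, with or without each library. In each comparison with vehicle and in the test of any difference the count ran from 0 to 3 when 1 library was left out, with 3 without vehicle replicate 2. It was 1 with DESeq2 for psilocybin against vehicle, 1 with limma voom for psilocybin and for MDMA against vehicle, and 1 without vehicle replicates 1 and 3 for vehicle against unstressed. Over all genes, calls ran from 2 (only the 2 groups) to 1750 (DESeq2) for vehicle against unstressed, against 478, and were 8 to 3670 with 1 library left out. For MDMA against vehicle they were 0 to 1338, against 94, and 0 to 3613 with 1 library left out, and for psilocybin against vehicle 0 to 1061, against 2, and 0 to 3536. The causes were not tested.

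Pairs of members past the threshold, 6 with all libraries, ran from 1 to 23 with 1 library left out. They were 4 for r in the 9 stressed libraries, 0 for rho there and 0 for deviations from group means. For log2(CPM + 0.1) they were 5, and without vehicle replicates 1 and 3 they were 3. With TMM-scaled CPM they were 9, with the pairs of Grb10 with Meg3 (r = -0.84), Plagl1 (0.80), Mest (-0.75) and Nnat (-0.84) added and Plagl1 with Mest lost (adjusted p = 0.063, permutation test). Pairs of a member and a marker sum, 7 with all libraries, ran from 2 to 9 with 1 library left out. They were 2 for rho, 2 for rho in the stressed libraries, 0 for deviations, 11 for log2(CPM + 0.1), 15 for TMM-scaled CPM and 2 without vehicle replicates 1 and 3.

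Of the members' 544 recomputed fold changes, 465 kept direction and side of the threshold, and 11 kept direction and passed it. The other 68 changed sign, counted whether or not they passed it. With 1 library left out, signs changed within these log2 ranges for vehicle against unstressed: H19 -3.62 to 0.25, Meg3 -0.19 to 2.56, Peg3 -0.32 to 0.29, Cdkn1c -0.83 to 0.60, Plagl1 -1.57 to 2.66, Mest -0.23 to 1.18, Grb10 -0.67 to 0.13 and Rian -8.15 to 0.91 (the lower value without vehicle replicate 2, against 0 counts, so set by the prior count). For psilocybin against vehicle they were H19 -2.46 to 1.42, Cdkn1c -0.77 to 0.65, Plagl1 -3.71 to 0.55, Mest -0.41 to 0.99, Grb10 -0.78 to 0.012 and Nnat -1.27 to 0.018. For MDMA against vehicle they were H19 -1.32 to 3.20, Cdkn1c -0.61 to 0.79, Plagl1 -3.24 to 0.94, Mest -0.87 to 0.51, Grb10 -0.43 to 0.33 and Nnat -0.80 to 0.60. For psilocybin against MDMA they were Meg3 -0.35 to 0.63, Rian -0.65 to 0.51 and Nnat -0.97 to 0.023.

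Without vehicle replicates 1 and 3 signs changed for vehicle against unstressed in Cdkn1c (-0.25) and Plagl1 (-3.38, adjusted p = 0.0431 by edgeR), for psilocybin against vehicle in H19 (0.36), Cdkn1c (0.083), Plagl1 (2.37) and Grb10 (0.061), and for MDMA against vehicle in H19 (2.13), Meg3 (-0.27), Cdkn1c (0.23), Plagl1 (2.76) and Grb10 (0.37). With limma voom they changed for vehicle against unstressed in Plagl1 (-0.13), Mest (-0.25) and Rian (-2.42), with Peg3 at 0, for psilocybin against vehicle in H19 (2.52) and Nnat (0.86), for MDMA against vehicle in H19 (3.70), Mest (0.58) and Nnat (1.32), and for psilocybin against MDMA in Rian (-0.17). For vehicle against unstressed, DESeq2 and its size factors in edgeR gave 0.13 for Peg3 and 0.08 for Grb10, and no filter gave 0.032 for Peg3.

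With the replicate number as a block 0 members were called in every comparison, and 10 genes in all for vehicle against unstressed, 0 for MDMA against vehicle and 0 for psilocybin against vehicle. The block ended the calls of Gnas, Igf2 and Snrpn (adjusted p = 0.0616, 0.0749 and 0.0772). Signs changed under the block for H19 (0.87), Mest (0.10) and Nnat (0.69) in MDMA against vehicle, Nnat (0.13) in psilocybin against vehicle, Cdkn1c (-0.033) and Rian (-1.08) in vehicle against unstressed and Rian (-0.27) in psilocybin against MDMA. Same-numbered libraries had correlations of 0.02 to 0.131 in vehicle against unstressed and -0.109 to 0.077 in MDMA against vehicle. In psilocybin against MDMA these were 0.024 to 0.225, and whether the number pairs any of these groups was not tested.

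Low totals limit vehicle replicate 2, where 1 count is worth more than in any other library, and 3 libraries a group limit every test.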
